A study of Mus musculus with 56 samples.

Results

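Snai1, Snai2, Zeb1, Zeb2, Twist1, Twist2 and Prrx1, the transcription factors that drive an epithelial-mesenchymal transition (EMT), were followed through 56 RNA-sequencing samples of mouse mammary tumor cells. These 7 genes were chosen by name, not by a rule on their values, among the 20314 genes of the expression table. Earlier results of these data were known at that time. All of them were found there and were among the 13754 genes that reached at least 1 CPM (counts per M reads, scaled by library) in at least 2 samples and were tested. Prrx1 passed this filter only through the lines in which it was high. Twist2 met it within every line but D164A/fl and D164A/-. The cells were epithelial lines grown from tumors of MMTV-PyMT females (strain FVB/N), in which the mammary tumor virus promoter drives the polyoma middle T oncogene, so every line carried this transgene.

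The 7 genotypes differed in the β-catenin gene Ctnnb1: fl/fl with 2 floxed alleles, and a D164A, a ΔC or a dm allele over either a floxed allele (D164A/fl, ΔC/fl, dm/fl) or a deleted one (D164A/-, ΔC/-, dm/-). The D164A substitution removes the binding of β-catenin to its coactivators Bcl9 and Bcl9L. What the ΔC and dm alleles change was not given in the sources used here. The deleted allele was made in culture with an adenovirus carrying Cre and GFP, followed by sorting of GFP-positive cells, and fibroblasts had been removed by differential trypsinization. Cells were given either TGFβ (2 ng/ml, 4 days) or Wnt3a (100 ng/ml, 3 days). Separate untreated cells served each treatment, with 2 replicates in each of the 28 conditions. The labels do not say whether replicates were separate lines or separate cultures, so p-values measured only the spread between these samples, and a genotype and a cell line cannot be told apart.

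The members are DNA-binding proteins that bring a carcinoma cell to lose its epithelial junctions. Snai1 and Snai2 (zinc fingers) and Zeb1 and Zeb2 (zinc fingers flanking a homeodomain) bind the E-box CAGGTG and repress epithelial genes such as E-cadherin (Cdh1). Twist1 and Twist2 are basic helix-loop-helix factors, and Prrx1 is a paired-related homeodomain factor of mesenchyme, all of which go with mesenchymal gene expression. In build GRCm38 Snai1 lies at chr2:167538195-167542814, Snai2 at chr16:14705852-14709395, Zeb2 at chr2:44983512-45117442 and Twist1 at chr12:33957671-33959831. Twist2 lies at chr1:91801461-91848034 and Prrx1 at chr1:163245119-163315145, and reads over all exons of each gene were counted. TGFβ is the best known inducer of these factors, Wnt/β-catenin signaling stabilizes Snai1 protein, and control of this kind that acts on the protein is not seen by RNA-sequencing.

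The E-box itself is shown here because Snai1 is both a factor that binds it and a gene that holds it. RefSeq promoter sequences (build GRCm38.p6) were at hand for 5 of the 7 members, and CAGGTG was searched on both strands, where it reads CAGGTG or CACCTG, in the 250 bases before each start. Of the 5 members, Snai1 alone held it. Its upstream stretch is printed with those of Crb3 and Rab25, the epithelial genes with the largest mean decrease under TGFβ among the genes listed below. The capitals mark the E-box.
Snai1, plus strand, chr2:167537945-167538194: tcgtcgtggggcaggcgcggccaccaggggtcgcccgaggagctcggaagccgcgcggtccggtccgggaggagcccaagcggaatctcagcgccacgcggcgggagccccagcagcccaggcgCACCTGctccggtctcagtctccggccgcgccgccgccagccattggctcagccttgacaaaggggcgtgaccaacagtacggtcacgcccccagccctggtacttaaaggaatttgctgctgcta
Crb3, plus strand, chr17:57061951-57062200: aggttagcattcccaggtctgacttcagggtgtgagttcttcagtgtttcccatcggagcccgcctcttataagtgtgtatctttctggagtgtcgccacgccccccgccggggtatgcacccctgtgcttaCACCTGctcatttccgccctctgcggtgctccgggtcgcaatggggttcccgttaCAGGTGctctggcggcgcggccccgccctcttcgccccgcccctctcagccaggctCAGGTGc
Rab25, minus strand, chr3:88548280-88548529: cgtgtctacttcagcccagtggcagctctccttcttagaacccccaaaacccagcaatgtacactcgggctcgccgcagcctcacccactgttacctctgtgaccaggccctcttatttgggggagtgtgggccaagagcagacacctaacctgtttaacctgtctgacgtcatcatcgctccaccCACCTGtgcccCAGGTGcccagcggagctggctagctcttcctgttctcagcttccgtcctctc
The E-box of Snai1 began 126 bases before the start. Crb3 held 3 E-boxes before this start and Rab25 held 2. Such a match was found for 19.4% of the genes in the promoter table, and the 1 of 5 members (20%) is near that share. Of the genes listed below that the table held, 12 of 16 epithelial genes had a match. So did 4 of 10 factors that hold the epithelial state and none of 15 mesenchymal genes. The epithelial genes were listed because the members are known to repress them, so their share is no separate evidence. A match is a description of letters and not a measured binding site.

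Libraries held 22.4 to 33.7 M reads in genes, with a median of 26.8 M. A gene with 3 reads or fewer was called at the floor. These 3 reads stood for 0.0917 to 0.146 CPM, which covers counting error only. As a check of the treatment, Axin2, a direct β-catenin target, rose with Wnt3a in all genotypes but dm/-, where it stayed between 0 and 0.0791 CPM in the Wnt3a experiment. Ctnnb1 itself lay between 531 and 3188 CPM over all samples, and a total read count does not tell its alleles apart. Epithelial markers were read in every sample, Epcam at 75.3 CPM or more and Cdh1 at 49.9 CPM or more, whereas Krt19 was at 24.3 to 53.5 CPM in untreated fl/fl cells and at no more than 0.343 CPM in untreated cells of the 6 mutant lines.

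Over all 56 samples the members differed widely in level. Expressed per kb of exon, the median level was highest for Twist1 (10.3 CPM per kb) and Snai1 (6.73), followed by Snai2 (2.42), Zeb2 (0.850), Zeb1 (0.668), Twist2 (0.324) and Prrx1 (0.00652). Twist1 was the steady member, between 9.35 and 28.3 CPM in every sample, whereas Zeb1 ran from 0.324 to 206 CPM and Prrx1 from 0 to 163 CPM.

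TGFβ raised the ZEB factors. Averaged over the 7 genotypes, Zeb1 rose by 1.86 ± 0.20 (log2 fold change ± SE; limma, adjusted p = 5.25e-09) and Zeb2 by 1.15 ± 0.22 (adjusted p = 0.000131), and both treated samples stood above both untreated samples in 7 of 7 genotypes for Zeb1 and in 5 of 7 for Zeb2. In this mean response, 2 of the 7 members were called (adjusted p not above 0.05 and a log2 fold change of 1 or more in either direction), where 4.88% of all genes tested were called. Within single genotypes, 7 of 49 member responses were called, 4 upward (Zeb1 in 3 lines and Zeb2 in 1) and 3 downward (Prrx1 in 2 lines and Twist2 in 1). The share of all genes called was 6.25% in fl/fl, 3.38% in D164A/fl, 4.06% in D164A/-, 7.74% in ΔC/fl, 6.55% in ΔC/-, 10.3% in dm/fl and 6.12% in dm/-. In fl/fl cells 3 of 7 members were called, in dm/fl 2, in ΔC/- and dm/- 1 each, and in D164A/fl, D164A/- and ΔC/fl none; a single call among 7 is too few to set against such shares. In 6 of the 49 responses both arms lay at the floor of 3 reads (Prrx1 in D164A/fl, ΔC/fl, ΔC/- and dm/-; Twist2 in D164A/fl and D164A/-), and no change could be read there.

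**Figure D1:**
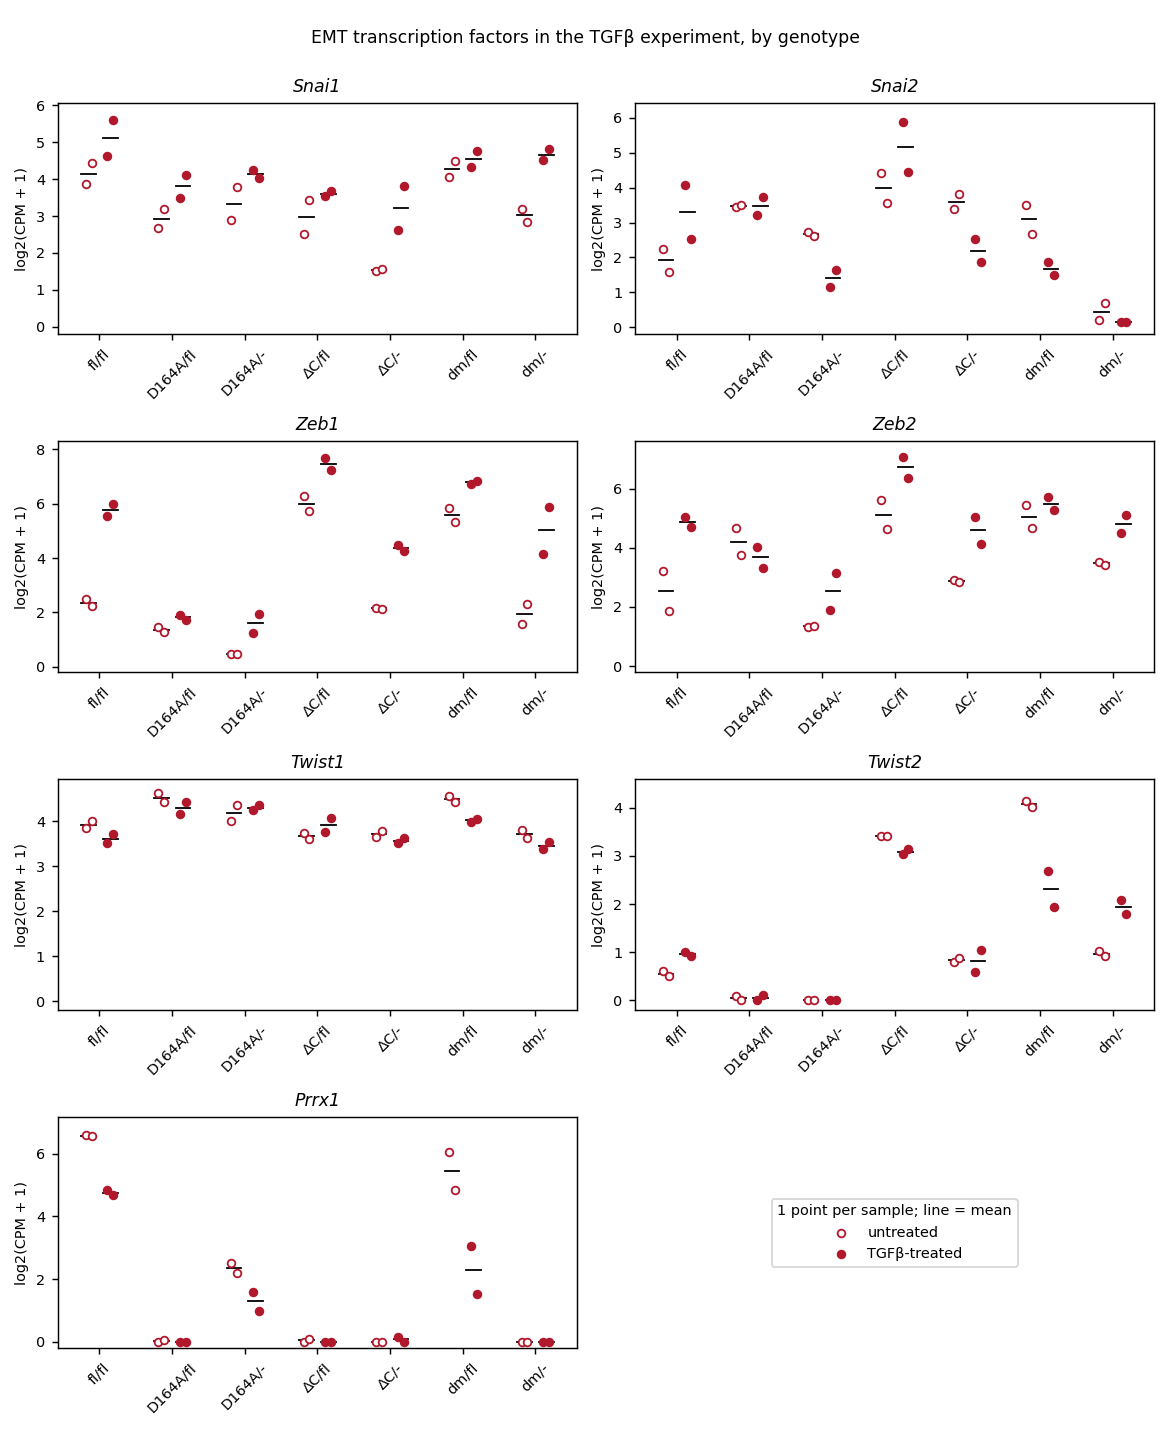
Level of each member in the TGFβ experiment as log2(CPM + 1), by genotype, with untreated samples as open circles, TGFβ-treated samples as filled circles and the mean of 2 samples as a line. Zeb1 is higher in both treated samples in all 7 genotypes, Twist1 moves little anywhere, and Prrx1 is lower in both treated samples of the 3 lines that express it.

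Zeb1, the member with the clearest response, stood at 4.63 and 3.67 CPM in untreated fl/fl cells and at 46.4 and 63.4 CPM after TGFβ. This was a log2 fold change of 3.43 ± 0.52 (adjusted p = 1.54e-05), 10.8-fold on the scale of CPM + 1. In dm/- cells it went from 1.99 and 4.00 CPM to 16.8 and 58.1 CPM (3.07 ± 0.52, adjusted p = 0.000109). In ΔC/- cells it went from 3.49 and 3.40 CPM to 21.6 and 18.3 CPM (2.23 ± 0.52, adjusted p = 0.00442). In the same samples the summed level of the 8 fibroblast markers named below went from 5.58 to 10.7 CPM to 30.3 to 32.6 CPM in fl/fl, from 6.97 to 7.96 to 36.7 to 126 CPM in dm/- and from 9.22 to 9.86 to 25.7 to 26.0 CPM in ΔC/-, and its part in the result was not tested. These 3 lines passed the test, although the last call was lost without ΔC/- +TGFβ replicate 1, at an adjusted p of 0.05 just above the threshold (lowest over the left-out samples 0.0328).

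The highest Zeb1 levels were reached in lines where the change missed the test. In ΔC/fl cells Zeb1 was already at 76.4 and 51.8 CPM and went to 206 and 151 CPM (1.47 ± 0.52, adjusted p = 0.0735). In dm/fl cells it went from 56.9 and 38.7 to 104 and 115 CPM (1.20 ± 0.52, adjusted p = 0.16). Treated and untreated samples of these lines did not overlap, and their untreated cells held at least as much Zeb1 RNA as 1 of the 2 treated fl/fl samples, except for 1 dm/fl sample. Both changes passed the test when the fit held only the TGFβ experiment (adjusted p = 0.0122 and 0.0352; ranges over 9 processing alternatives 0.00556 to 0.167 and 0.0226 to 0.263), and the ΔC/fl change also with the GC trend removed (0.0281).

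Both D164A lines stayed low in Zeb1. In D164A/fl cells the values were 1.73 and 1.42 CPM untreated and 2.71 and 2.33 CPM treated (0.45 ± 0.52, adjusted p = 0.844). In D164A/- cells they were 0.386 and 0.381 CPM untreated and 1.37 and 2.86 CPM treated (1.13 ± 0.52, adjusted p = 0.348; called with a pseudocount of 0.1, 0.0394). All 4 treated samples of the D164A lines therefore lay below both untreated fl/fl samples, which were at 3.67 CPM or more. The response of D164A/fl was smaller than that of fl/fl by 2.98 ± 0.74 on the log2 scale (interaction term, adjusted p = 0.0134; 0.0678 with edgeR, range over alternatives 0.00061 to 0.0678). That call was lost without D164A/fl -TGFβ replicate 1, D164A/fl +TGFβ replicate 2 or either replicate 2 of fl/fl (adjusted p up to 0.0818), and for D164A/- the difference of -2.30 ± 0.74 missed the threshold (adjusted p = 0.0756). The latter passed with the GC trend removed (0.0283) and with the TGFβ experiment alone (0.0129; range over alternatives 0.00486 to 0.978). So did the difference of dm/fl from fl/fl, -2.23 ± 0.74 (adjusted p = 0.0932; 0.0175 and 0.0167 in these alternatives, range 0.00298 to 0.247). The scale of CPM + 1 understates a change from values as low as those of untreated D164A/- cells. Their mean went from 0.383 to 2.11 CPM, and that of ΔC/-, where the response was called, from 3.45 to 19.9 CPM. A weaker response in D164A/- than in fl/fl was therefore not established.

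Zeb2, the paralog of Zeb1, followed it in fl/fl cells, from 8.37 and 2.66 CPM to 31.8 and 25.3 CPM (2.32 ± 0.59, adjusted p = 0.00839). This call depended on single samples: it was lost without fl/fl -TGFβ replicate 2 (1.65, adjusted p = 0.256) and without fl/fl +TGFβ replicate 1 (2.17, adjusted p = 0.0971), in a range of 0.00591 to 0.256 over the left-out samples. In ΔC/fl cells Zeb2 went from 47.8 and 23.8 to 133 and 81.6 CPM (1.59 ± 0.59, adjusted p = 0.0899). In ΔC/- it went from 6.56 and 6.10 to 32.1 and 16.5 CPM (1.72 ± 0.59, adjusted p = 0.0647), and both passed with the TGFβ experiment alone (0.0262 and 0.0167; ranges over alternatives 0.00663 to 0.212 and 0.00188 to 0.103), ΔC/- also with the GC trend removed (0.026). In dm/- it went from 10.4 and 9.76 to 21.4 and 33.4 CPM (1.33 ± 0.59, adjusted p = 0.206), and in dm/fl from 42.5 and 24.1 to 51.1 and 38.0 CPM, which overlap (0.45 ± 0.59, adjusted p = 0.843).

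D164A/fl was the line in which the mean of Zeb2 went down. Its untreated samples held 24.3 and 12.4 CPM and its treated samples 15.3 and 9.01 CPM, which overlap (-0.53 ± 0.59, adjusted p = 0.836). The difference from the response of fl/fl was -2.85 ± 0.83 (adjusted p = 0.0444). It was lost with a pseudocount of 0.1, without the filter on low values and with edgeR on the whole reads (adjusted p = 0.132 with edgeR; range over alternatives 0.00135 to 0.132), and without any of the 8 samples it rests on but fl/fl -TGFβ replicate 1 and D164A/fl -TGFβ replicate 2 (adjusted p up to 0.309). In D164A/- cells Zeb2 was low in both arms, at 1.51 and 1.56 CPM untreated and 2.73 and 7.92 CPM treated (1.19 ± 0.59, adjusted p = 0.422).

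Snai1, often the earliest of these factors to respond to TGFβ, was higher on average in treated cells of all 7 genotypes. The mean response was 0.98 ± 0.28 with an adjusted p of 0.00715, just under the required size, and it passed with a pseudocount of 0.1 (1.09) and with edgeR (1.09), and stayed uncalled in 17 of the 28 fits that left out 1 sample. Both treated samples stood above both untreated ones in 6 of 7 genotypes. The largest changes were in ΔC/-, from 1.86 and 1.95 to 5.13 and 13.2 CPM (1.68 ± 0.74, adjusted p = 0.181), and in dm/-, from 8.16 and 6.22 to 21.9 and 27.1 CPM (1.64 ± 0.74, adjusted p = 0.214). In fl/fl cells Snai1 went from 13.5 and 20.7 to 23.9 and 47.8 CPM (0.97 ± 0.74, adjusted p = 0.799). The pooled SE of 0.74 was the largest among the members, and no single genotype passed the test as fitted. ΔC/- and dm/- passed with the GC trend removed (adjusted p = 0.00124 and 0.000255) and with the TGFβ experiment alone (0.00652 and 0.00898), in ranges over alternatives of 1.16e-05 to 0.215 and 2.49e-06 to 0.268.

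Snai2 (Slug) split by line. It stood higher in both treated samples of 2 genotypes and lower in both treated samples of 4. Among the latter, in dm/- Snai2 had only 5 and 17 reads untreated and 3 and 3 reads, the floor, treated. In fl/fl cells it went from 3.74 and 2.02 to 15.7 and 4.74 CPM (1.37 ± 0.61, adjusted p = 0.249), and in ΔC/fl from 20.4 and 10.9 to 58.1 and 20.7 CPM (1.17 ± 0.61, adjusted p = 0.312). In dm/fl it went from 10.3 and 5.39 to 2.62 and 1.81 CPM (-1.42 ± 0.61, adjusted p = 0.153), and in ΔC/- from 9.43 and 13.1 to 4.75 and 2.65 CPM (-1.40 ± 0.61, adjusted p = 0.173). In D164A/- it went from 5.60 and 5.10 to 1.23 and 2.13 CPM (-1.26 ± 0.61, adjusted p = 0.387). No genotype passed the test for Snai2 as fitted, and neither did the differences from fl/fl, of -2.79 ± 0.86 in dm/fl (adjusted p = 0.0608), -2.78 ± 0.86 in ΔC/- (0.097) and -2.64 ± 0.86 in D164A/- (0.0825). With the TGFβ experiment alone the responses of ΔC/- and dm/fl passed (0.041 and 0.0381; ranges over alternatives 0.000573 to 0.267 and 0.000193 to 0.194). All 3 differences passed there too (0.0124, 0.0178 and 0.0169 in the same order; ranges 4.58e-05 to 0.175, 0.000152 to 0.284 and 0.000339 to 0.134). With the GC trend removed the dm/fl response (0.0389) and the dm/fl and ΔC/- differences (0.0175 and 0.0436) passed.

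Prrx1 fell with TGFβ in 2 of the 3 lines that expressed it. In fl/fl cells it went from 94.8 and 92.6 CPM to 27.4 and 24.5 CPM (-1.81 ± 0.44, adjusted p = 0.00543). In dm/fl cells it went from 64.5 and 27.5 CPM to 7.26 and 1.87 CPM (-3.15 ± 0.44, adjusted p = 2.10e-06). In D164A/- cells it went from 4.71 and 3.62 to 2.03 and 0.990 CPM (-1.06 ± 0.44, adjusted p = 0.232). Treated samples lay below untreated ones in all 3 lines. In the same samples the summed fibroblast markers named below fell in dm/fl, from 312 to 533 CPM to 100.3 to 128 CPM. They rose in fl/fl, from 5.58 to 10.7 CPM to 30.3 to 32.6 CPM. In D164A/- they overlapped, at 95.0 to 105 CPM untreated and 90.5 to 146 CPM treated. Their part in the result was not tested. The SE was pooled over all 28 conditions, including the lines where Prrx1 lay at the floor and hardly varied. It can therefore understate the spread in the lines that expressed Prrx1, and the same holds for Twist2 with its D164A lines. The fl/fl call was lost with edgeR (adjusted p = 0.232; range over alternatives 4.84e-05 to 0.232), with a pseudocount of 0.1 and without fl/fl +TGFβ replicate 2 (adjusted p = 0.067). The mean over the 7 genotypes, -0.86 ± 0.17 (adjusted p = 0.000131), includes 4 lines at the floor.

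Twist2 moved in opposite directions in the dm lines. In dm/fl cells it fell from 16.6 and 15.2 CPM to 5.39 and 2.83 CPM (-1.77 ± 0.32, adjusted p = 0.000118). In dm/- cells it went from 1.04 and 0.884 CPM to 3.26 and 2.48 CPM (0.97 ± 0.32, adjusted p = 0.0579). The difference between the dm lines, 2.74 ± 0.46, passed the test (adjusted p = 7.08e-05), as did that between dm/fl and fl/fl, -2.18 ± 0.46 (adjusted p = 0.00208), the latter not with edgeR (adjusted p = 0.128; range over alternatives 2.44e-06 to 0.128). In ΔC/fl, the other line with clear Twist2 expression, it stood at 9.68 and 9.65 CPM untreated and at 7.20 and 7.79 CPM treated (-0.33 ± 0.32, adjusted p = 0.751). The summed fibroblast markers moved with Twist2 in both lines without overlap, from 312 to 533 CPM untreated to 100.3 to 128 CPM treated in dm/fl and from 6.97 to 7.96 CPM to 36.7 to 126 CPM in dm/-, and their part in the result was not tested. Twist1 changed by no more than 0.47 on the log2 scale in any genotype under TGFβ and passed no test, with a mean of -0.15 ± 0.09.

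Over the 6 mutants, 3 of 42 differences in TGFβ response from fl/fl were called (Zeb1 and Zeb2 in D164A/fl and Twist2 in dm/fl), beside 3.27% of all genes pooled over these contrasts, all of which share the 4 fl/fl samples. Of the 42 differences between a line with a deleted and a line with a floxed second allele, over both treatments, 3 were called beside 2.14% of all genes. They were Twist2 in the dm pair under TGFβ and under Wnt3a, and Prrx1 in the dm pair under TGFβ (3.15 ± 0.62, adjusted p = 0.000726). Prrx1 entered the test only through the lines in which it was high, and without it the Twist2 calls alone remain. The Prrx1 value is the fall in dm/fl alone, since Prrx1 had no read in any of the 8 dm/- samples and could not fall there; edgeR gave an adjusted p of 1 (range over alternatives 2.92e-06 to 1).

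**Figure D2:**
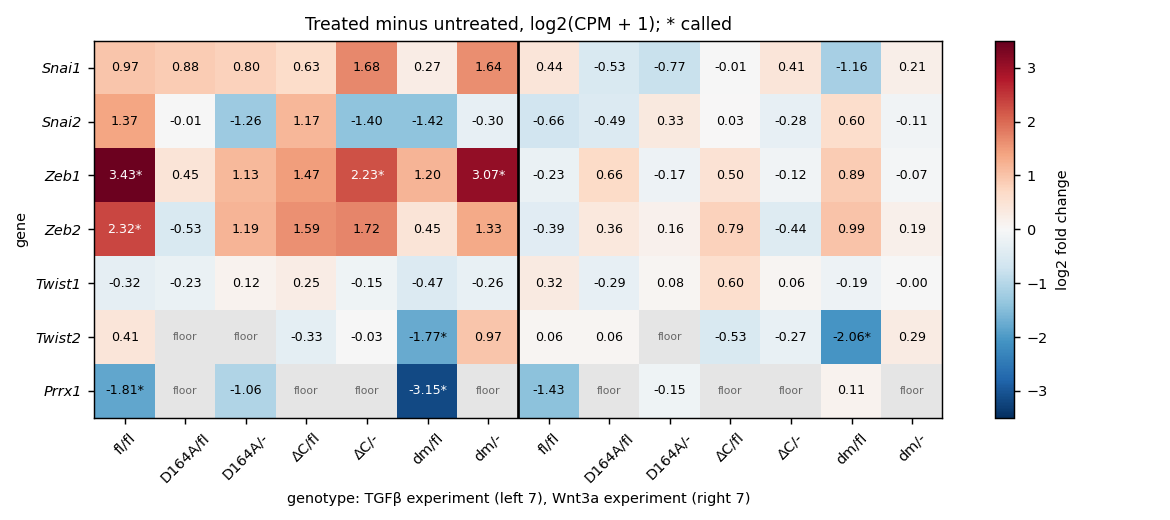
Log2 fold change on the scale of CPM + 1, treated minus untreated, of each member (rows) in each genotype (columns), with the TGFβ experiment on the left and the Wnt3a experiment on the right. Asterisks mark the 7 TGFβ and the 1 Wnt3a responses that were called, and grey cells mark pairs in which no sample had more than 3 reads.

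Of 49 member responses to Wnt3a 1 was called, and treated and untreated samples did not overlap in 11 of the 44 responses above the floor. The call was Twist2 in dm/fl cells, which fell from 44.1 and 22.9 CPM to 6.35 and 7.40 CPM (-2.06 ± 0.32, adjusted p = 0.000258). The call was lost with edgeR (adjusted p = 0.148; range over alternatives 7.24e-06 to 0.148). The untreated sample at 44.1 CPM, dm/fl -Wnt3a replicate 1, had the strongest relation of level to GC content of all 56 samples (Spearman rho 0.8 across genes, which are not independent), and without it the fall was -1.61 and still called (adjusted p = 0.0413). The summed fibroblast markers went from 120 to 213 CPM untreated to 43.6 to 140 CPM treated in these cells, and the part of either in the result was not tested. The share of all genes called was 0.378% in fl/fl, 4.15% in D164A/fl, 0.654% in D164A/-, 0.225% in ΔC/fl, 0.0509% in ΔC/-, 0.574% in dm/fl and 0% in dm/-. In dm/- no gene was called by limma or by edgeR, and 29 genes had an unadjusted p under 0.05 in limma. In the mean Wnt3a response no member was called, where 0.494% of all genes were, and the members ranged from -0.35 ± 0.12 (Twist2, adjusted p = 0.142) to 0.24 ± 0.22 (Zeb2, adjusted p = 0.876).

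Twist2 thus fell in dm/fl cells under both treatments. Its Wnt3a response differed from that of fl/fl by -2.12 ± 0.46 (adjusted p = 0.0377), the single call among 42 such differences, beside 0.439% of all genes, and from that of dm/- by 2.35 ± 0.46 (adjusted p = 0.0143). These differences were less stable than the fall itself: the former was lost under 4 of 9 alternatives and without any of the 8 samples but fl/fl +Wnt3a replicate 2 and dm/fl -Wnt3a replicate 2, with adjusted p up to 0.507. The latter was lost under 3 of 9 alternatives and without either replicate 1 of dm/fl, dm/- -Wnt3a replicate 1 or dm/- +Wnt3a replicate 2, with adjusted p up to 0.496.

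Among the other members the largest Wnt3a changes were those of Prrx1 in fl/fl and Snai1 in dm/fl. Prrx1 stood at 163 and 137 CPM in untreated fl/fl cells and at 50.1 and 59.9 CPM after Wnt3a (-1.43 ± 0.44, adjusted p = 0.172), with no overlap. Prrx1 is the most GC-poor member, at 42.1%. The GC relation of these libraries was rho -0.541 and -0.62 untreated and 0.499 and -0.317 treated, and its part in the change was not tested. Snai1 in untreated dm/fl cells was at 106 CPM in replicate 1 and at 8.64 CPM in replicate 2, and at 15.7 and 11.3 CPM after Wnt3a. The sample at 106 CPM, the library with the strongest GC relation named above (Snai1 is the most GC-rich member, at 59.8%), was the highest Snai1 value of the study, and it set the sign: the change was -1.16 ± 0.74 with all samples, 0.57 without replicate 1 of the untreated cells and -2.90 without replicate 2, which passed the test (adjusted p = 0.00284). Zeb1 and Zeb2 in dm/fl were higher in both treated samples, Zeb1 at 69.3 and 50.3 against 23.7 and 41.6 CPM and Zeb2 at 51.1 and 26.3 against 15.7 and 20.8 CPM, but did not pass the test (0.89 ± 0.52 and 0.99 ± 0.59, adjusted p = 0.34 and 0.344). In fl/fl cells treated with Wnt3a the replicates disagreed for Zeb1, at 2.82 and 22.5 CPM, and for Zeb2, at 1.31 and 10.0 CPM. These libraries had GC relations of opposite sign (rho 0.499 and -0.317). Twist1 lay between 11.2 and 28.3 CPM throughout this experiment.

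**Figure D3:**
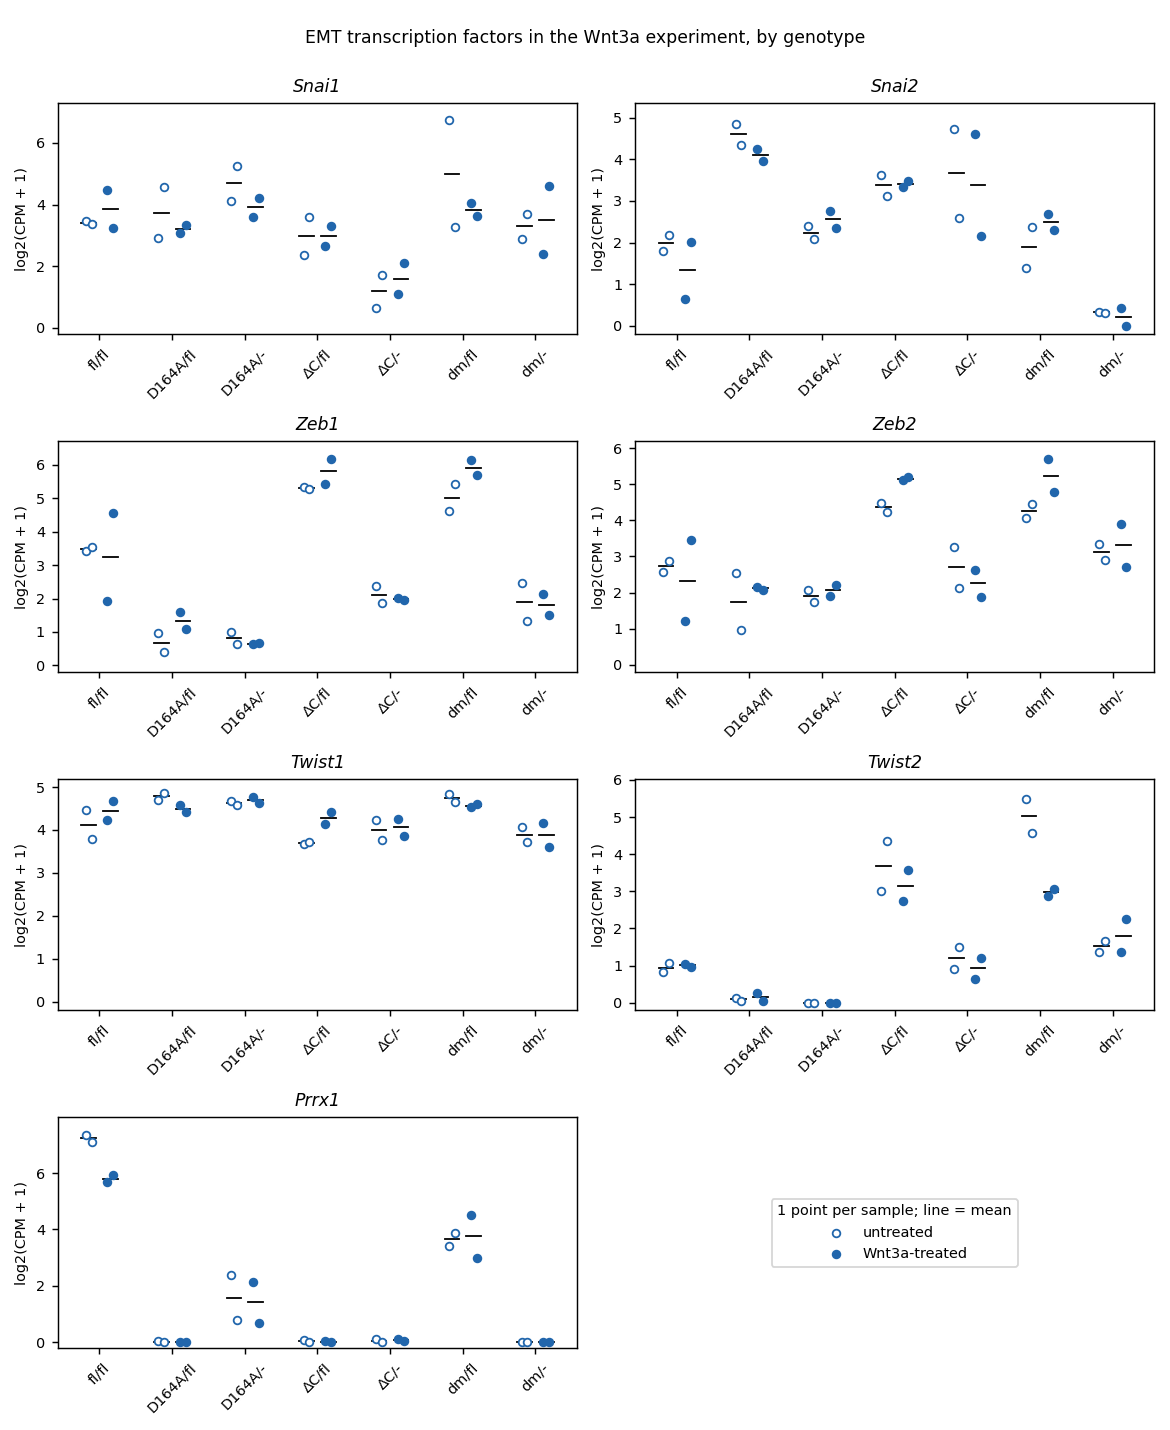
Level of each member in the Wnt3a experiment as log2(CPM + 1), by genotype, drawn as for TGFβ with untreated samples open and treated samples filled. Twist2 in dm/fl is the pair that passed the test, and the untreated dm/fl sample with Snai1 at 106 CPM stands alone.

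Before any treatment the lines already differed in these factors. The untreated cells of both experiments, 4 samples per genotype, were compared between lines. Of 42 differences between a mutant line and fl/fl, 19 were called (45.2%), where the share of all genes called was 16.2% in D164A/fl, 18.9% in D164A/-, 16.6% in ΔC/fl, 23.0% in ΔC/-, 21.1% in dm/fl and 17.9% in dm/-. Without Prrx1, which entered the test through its high lines, 13 of 36 were called (36.1%). Besides Prrx1, the calls were Snai2 and Zeb1 in D164A/fl, Zeb1 in D164A/- and Snai2 in dm/-. They were Snai2, Zeb1, Zeb2 and Twist2 in ΔC/fl, Snai1 and Snai2 in ΔC/-, and Zeb1, Zeb2 and Twist2 in dm/fl. The single call in D164A/- and in dm/- is too few to set against the shares of all genes there. All 6 contrasts share the fl/fl samples, and a line stands for its genotype in each.

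**Figure D4:**
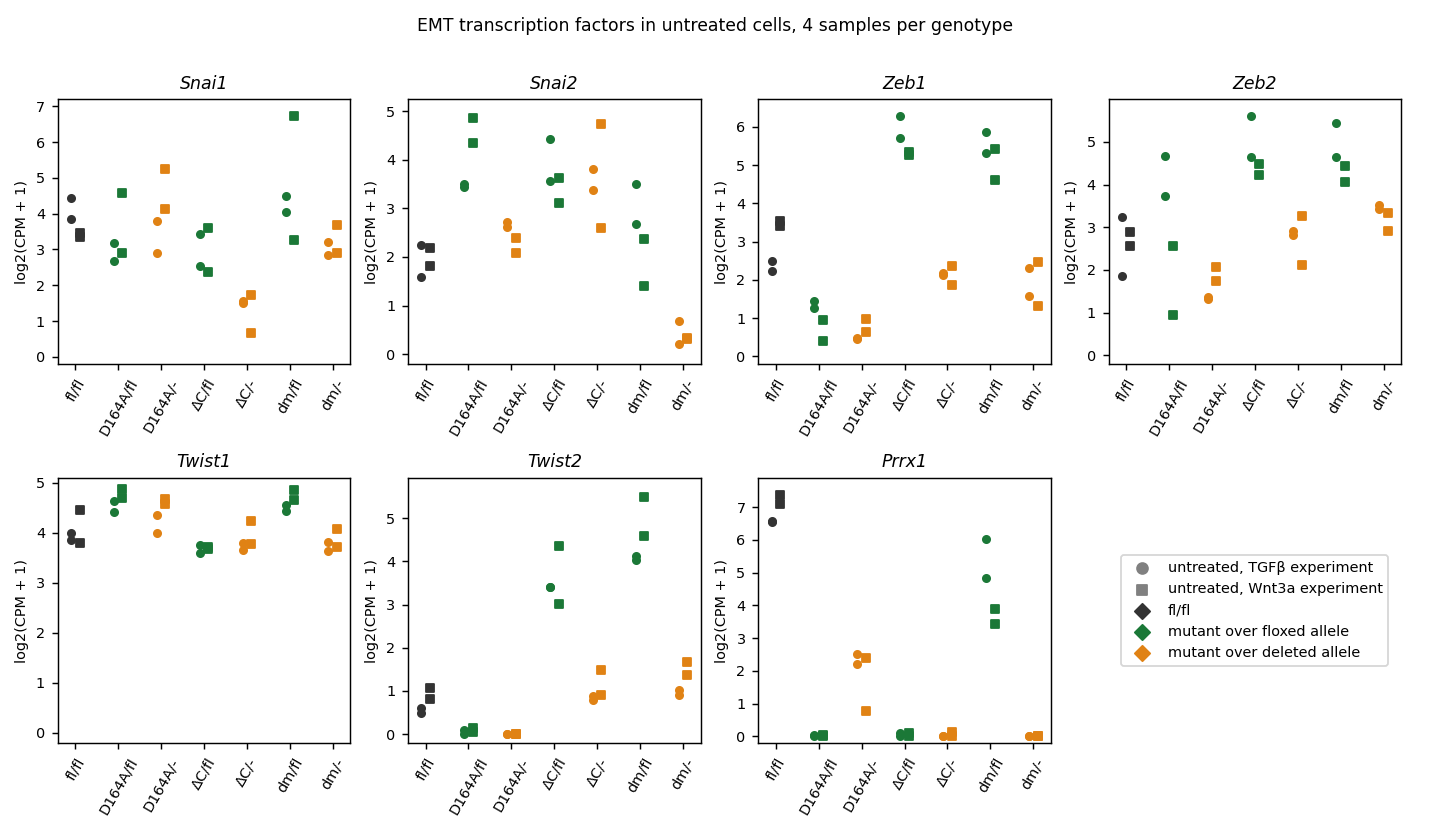
Level of each member in untreated cells as log2(CPM + 1), by genotype, 4 samples each (circles from the TGFβ experiment, squares from the Wnt3a experiment), with fl/fl in black, mutant alleles over a floxed allele in green and over a deleted allele in orange. Zeb1, Zeb2 and Twist2 are high in ΔC/fl and dm/fl and lower in ΔC/- and dm/-, and Prrx1 is highest in fl/fl.

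Prrx1 was highest in the fl/fl line. Its 4 untreated samples there lay between 92.6 and 163 CPM (median 116), above dm/fl at 9.71 to 64.5 CPM and D164A/- at 0.718 to 4.71 CPM, with no overlap between these lines. In D164A/fl, ΔC/fl and ΔC/- it lay between 0 and 0.0828 CPM, and dm/- had no read at all, which puts fl/fl at least 1027-fold and dm/fl at least 243-fold above dm/- when 3 reads per library are taken as its floor. Since Prrx1 entered the test only through the lines in which it was high, its levels are given as a description, and the fitted differences depend on the pseudocount where a line lay at the floor.

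Zeb1 divided the untreated lines into 2 high lines and 5 lower ones. ΔC/fl (37.4 to 76.4 CPM) and dm/fl (23.7 to 56.9 CPM) overlapped each other and lay above all other lines, fl/fl being next at 3.67 to 10.6 CPM. Relative to fl/fl, Zeb1 was higher by 2.73 ± 0.37 in ΔC/fl (adjusted p = 3.95e-07) and by 2.38 ± 0.37 in dm/fl (adjusted p = 3.83e-06), and different by -1.89 ± 0.37 in D164A/fl (adjusted p = 0.000126) and by -2.28 ± 0.37 in D164A/- (adjusted p = 6.66e-06). Untreated D164A/fl and D164A/- cells held 0.324 to 1.73 and 0.381 to 0.984 CPM. Within the Wnt3a experiment alone the rises in ΔC/fl and dm/fl were 1.82 and 1.54 and missed the test (adjusted p = 0.067 and 0.0799), and within the TGFβ experiment alone the D164A/fl value was -1.0 (adjusted p = 0.056).

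Zeb2 and Twist2 shared the high lines. Zeb2 was at 17.8 to 47.8 CPM in ΔC/fl and at 15.7 to 42.5 CPM in dm/fl, against 2.66 to 8.37 CPM in fl/fl (2.10 ± 0.42 and 2.01 ± 0.42, adjusted p = 0.000155 and 0.000235). Within the Wnt3a experiment alone these were 1.63 and 1.53 and missed the test (adjusted p = 0.134 and 0.0979). Twist2 was at 7.10 to 19.4 CPM in ΔC/fl and 15.2 to 44.1 CPM in dm/fl, against 0.412 to 1.11 CPM in fl/fl (2.80 ± 0.23 and 3.81 ± 0.23, adjusted p = 6.76e-12 and 3.35e-15), and called within either experiment. In D164A/- no sample had a Twist2 read, which puts fl/fl at least 5.54-fold higher, and D164A/fl had at most 6 reads.

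The same lines stood apart in fibroblast markers. The summed level of 8 such markers (Pdgfra, Pdgfrb, Dcn, Lum, Thy1, Fap, Dpt, Col1a1) in untreated cells was 105 to 743 CPM in ΔC/fl and 120 to 533 CPM in dm/fl, 54.4 to 105 CPM in the D164A lines and 5.58 to 13.0 CPM in fl/fl, ΔC/- and dm/-. Pdgfra and Pdgfrb made up nearly all of it in the high lines, at 40.3 CPM or more each, whereas Lum, Thy1, Fap and Dpt lay at no more than 0.517 CPM in every untreated sample. Of the leukocyte markers, Csf1r reached 290 to 530 CPM in untreated dm/fl cells while Ptprc stayed at 0.208 CPM or less in every untreated sample. The part of other cells in the levels of Zeb1, Zeb2 and Twist2 was not tested, and in such bulk samples fewer cells of a type and less RNA per cell cannot be told apart.

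Snai2 and Snai1 followed other orders. Snai2 was higher than in fl/fl in untreated D164A/fl (9.87 to 27.9 against 2.02 to 3.74 CPM; 2.08 ± 0.43, adjusted p = 0.000259), ΔC/fl (1.73 ± 0.43, adjusted p = 0.00205) and ΔC/- (1.67 ± 0.43, adjusted p = 0.00211), and lower in dm/- (0.153 to 0.601 CPM; -1.57 ± 0.43, adjusted p = 0.00457). In the Wnt3a experiment alone the last 3 missed the test (adjusted p = 0.261, 0.138 and 0.131). Snai1 was lowest in ΔC/-, at 0.580 to 2.29 CPM against 9.28 to 20.7 CPM in fl/fl (-2.42 ± 0.52, adjusted p = 0.00034; -2.22 and 0.145 in the Wnt3a experiment alone), and its other 6 lines overlapped their neighbours in order of level. Twist1 was the only member with no call, its untreated lines overlapping their neighbours from D164A/fl (20.4 to 28.3 CPM) down to ΔC/fl (11.1 to 12.4 CPM).

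Deletion of the floxed second allele went with lower levels of most members in the ΔC and dm lines. In dm/- against dm/fl, 5 of the 6 members other than Prrx1 were lower and called, beside 18.3% of all genes. Zeb1 was at 1.5 to 4.51 against 23.7 to 56.9 CPM (-3.38 ± 0.37, adjusted p = 5.55e-09), and Twist2 at 0.884 to 2.17 against 15.2 to 44.1 CPM (-3.31 ± 0.23, adjusted p = 1.25e-13). Snai2 changed by -2.10 ± 0.43, Zeb2 by -1.35 ± 0.42 and Snai1 by -1.48 ± 0.52 (adjusted p = 0.000211, 0.0112 and 0.0269), and Prrx1 had no read in dm/-. The Snai1 value rests on dm/fl -Wnt3a replicate 1, the sample at 106 CPM, without which it was -0.61 (adjusted p = 0.346), and was also lost without dm/- -Wnt3a replicate 1 or replicate 2 of either line in the TGFβ experiment. The Zeb2 value was lost without dm/fl -TGFβ replicate 1 (-1.16, adjusted p = 0.0642). Within the Wnt3a experiment alone Snai2, Zeb2 and Snai1 were at -1.56, -1.13 and -1.71 and missed the test (adjusted p = 0.165, 0.31 and 0.283). Twist1 differed by -0.82 ± 0.16 (adjusted p = 0.000167), short of the required size.

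In ΔC/- against ΔC/fl, 4 of the 6 members other than Prrx1 were lower and called, beside 12.2% of all genes. Zeb1 stood at 2.64 to 4.18 against 37.4 to 76.4 CPM (-3.51 ± 0.37, adjusted p = 4.58e-09). Twist2 changed by -2.53 ± 0.23 (adjusted p = 1.42e-10), Zeb2 by -1.95 ± 0.42 (adjusted p = 0.000526) and Snai1 by -1.62 ± 0.52 (adjusted p = 0.0199). Zeb1 and Twist2 were called within either experiment, and Zeb2 and Snai1 were not in the Wnt3a experiment (adjusted p = 0.187 and 0.392). The Snai1 call was also lost without replicate 1 of ΔC/- or replicate 2 of ΔC/fl in either experiment (adjusted p up to 0.116). Snai2 stood at 5.03 to 25.5 CPM in ΔC/- and at 7.67 to 20.4 CPM in ΔC/fl, with a difference of -0.05 ± 0.43.

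The D164A pair showed another set, with 2 of the 6 members other than Prrx1 called beside 9.45% of all genes. Prrx1 was at 0.718 to 4.71 CPM in D164A/- and at no more than 0.0337 CPM in D164A/fl, while Snai2 (-1.59 ± 0.43, adjusted p = 0.00716) and Zeb2 (-1.35 ± 0.42, adjusted p = 0.0188) were lower. The Zeb2 difference was carried by the TGFβ experiment, whose D164A/fl cells held 24.3 and 12.4 CPM, and in the Wnt3a experiment alone it was 0.15 (adjusted p = 1). It was lost without replicate 1 of D164A/fl in either experiment, D164A/- -TGFβ replicate 1 or D164A/- -Wnt3a replicate 2 (adjusted p up to 0.158). Snai2 was called in neither experiment alone (-0.81 and -2.36, adjusted p = 0.192 and 0.0933). Zeb1 was near its lowest in both lines and did not pass (-0.38 ± 0.37, adjusted p = 0.566).

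The genes that share a pathway with the members were described from lists, each by its counts of calls and its median. These lists were chosen with earlier results of these data known. In the mean TGFβ response 4.88% of all genes tested were called. Of 25 mesenchymal genes tested, 11 rose with TGFβ and none fell in the mean response, with a median log2 fold change of 0.91 against -0.02 over all genes tested. Mmp9, a matrix protease, rose by 5.75 ± 0.33, Tnc, which encodes tenascin C, by 5.61 ± 0.24 and Itgb3, an integrin subunit, by 4.16 ± 0.17. At the other end of the list Col6a1, S100a4 and Lox were at -0.75, -0.40 and -0.13 and were not called. Per genotype 12 mesenchymal genes were called upward in fl/fl, 7 in D164A/fl, 8 in D164A/-, 12 in ΔC/fl, 8 in ΔC/-, 13 in dm/- and 5 in dm/fl. The share of all genes called in either direction was 6.25%, 3.38%, 4.06%, 7.74%, 6.55%, 6.12% and 10.3% in this order. In dm/fl 5 mesenchymal genes were also called downward, with a list median of -0.49, and in ΔC/fl 1 was.

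Of 23 epithelial genes that the members are known to repress, 5 fell and none rose in the mean TGFβ response (median -0.54). Rab25, a GTPase of apical recycling, was at -1.84 ± 0.19, the polarity gene Crb3 at -1.73 ± 0.22 and occludin (Ocln) at -1.48 ± 0.18, while the keratin genes Krt8 and Krt18 and the claudin gene Cldn4 were at 0.75, 0.41 and 0.52 and were not called. The number called downward was 13 in ΔC/fl, 8 in fl/fl, 4 in dm/fl, 3 in dm/-, 2 in each of D164A/- and ΔC/- and 0 in D164A/fl, where the share of all genes called in either direction was 7.74%, 6.25%, 10.3%, 6.12%, 4.06%, 6.55% and 3.38% in this order. The 0 in D164A/fl is from limma, where 1960 genes had an unadjusted p under 0.05 and edgeR called 349 genes in all.

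Factors that hold the epithelial state fell with TGFβ in 7 of 17 cases and rose in none (mean response, median -0.83). The grainyhead factors Grhl1 (-1.91 ± 0.15) and Grhl3 (-1.45 ± 0.17) and the zinc finger gene Ovol1 (-1.70 ± 0.17) led the list, and Foxa1 (0.02), Elf5 (-0.19) and Cebpa (-0.51) were at its other end. ΔC/fl had 11 such calls downward, fl/fl and dm/fl 7 each, dm/- 6, D164A/- 5, ΔC/- 3 and D164A/fl 1. Beside them, 7.74%, 6.25%, 10.3%, 6.12%, 4.06%, 6.55% and 3.38% of all genes were called in either direction, in this order.

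**Figure D5:**
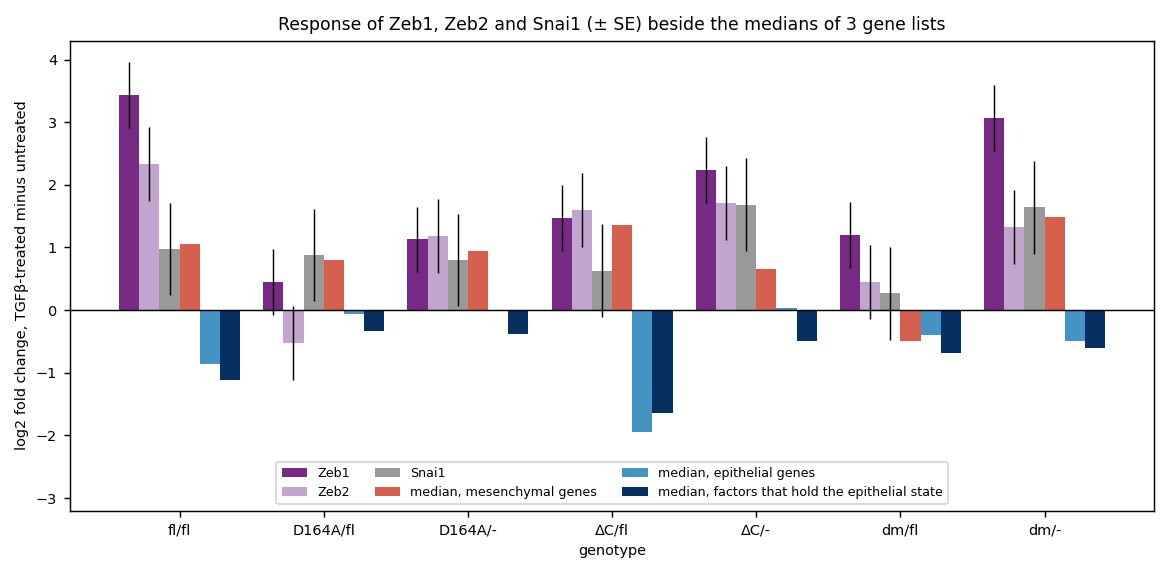
Log2 fold change under TGFβ (CPM + 1 scale) of Zeb1, Zeb2 and Snai1 with SE, beside the median of the mesenchymal genes, the epithelial genes and the factors that hold the epithelial state, by genotype. The epithelial median is lowest in ΔC/fl, at -1.95, and the mesenchymal median is below 0 in dm/fl, at -0.49.

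Other factors tied to EMT gave 3 calls among 20 tested in the mean TGFβ response, where 4.88% of all genes tested were called. Hmga2, a chromatin factor (1.23 ± 0.26), and Tead2, a partner of Yap (1.08 ± 0.16), rose and Foxc1, a forkhead factor (-1.03 ± 0.13), fell. Etv4 was at 0.72 and Sox9 and Prrx2 at -0.94 and -0.74. Among 22 corepressors and partners of the members, Id4, an inhibitor of helix-loop-helix factors, was the single call (-1.02 ± 0.12), which is near the share of all genes. Its relatives Id1 and Id2 were at -0.91 and -0.85, and Pak1, Kdm1a and Hdac1 were at 0.79, 0.54 and 0.38. Of 23 genes of the TGFβ pathway 5 rose and 2 fell: Ccn2 (2.74 ± 0.19) and Ltbp2 (2.05 ± 0.20) were among those that rose, and the ligand gene Tgfb2 (-1.09 ± 0.20) and the coreceptor gene Tgfbr3 (-1.32 ± 0.17) fell. Under Wnt3a the mean response of these 6 lists held 1 call in all, in the list of factors that hold the epithelial state, beside 0.494% of all genes tested.

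The genes most like each member were sought by the Pearson correlation of mean log2(CPM + 1) over the 28 conditions, which share lines and libraries. Among the members the highest values were those of Zeb1 with Zeb2 (r = 0.904), Zeb1 with Twist2 (0.792) and Zeb2 with Twist2 (0.706), while Snai2 reached at most 0.212 and Twist1 at most 0.234 with any other member. Snai1 and Prrx1 were at 0.463. Among the genes most like Zeb1 were Zeb2 and Dzip1l (0.893). Zeb2 was most like Zeb1 and Fbn1 (0.841), which encodes fibrillin. Twist2 was most like Pcolce (0.968), which encodes an enhancer of procollagen processing, Col1a2 (0.948) and Haus7 (0.93), and Prrx1 was most like Scrn1, Tram1l1 and Fuom (0.913, 0.91 and 0.909). Snai1 was most like Evl, Pfkp and Mmp14 (0.852 to 0.812), Snai2 like Ggt7, Casq2 and Sspn (0.839 to 0.802) and Twist1 like Krt79, Psmb4 and Tspan1 (0.827 to 0.797).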

How the data were processed

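Polyadenylated RNA was sequenced as stranded single-end libraries. According to the methods and the submitters' processing notes, the authors mapped reads to mm10 with STAR, keeping unique hits, and counted reads in RefSeq exons with qCount (QuasR). The deposited table holds a signal for which the authors divided read counts by an effective library size, here called CPM; 100% of the values were whole reads within a tolerance of 0.001. The sources differ on the sequencer used, and the treatment label names lines of another gene with the same doses. Reads of overlapping or near-identical genes are lost to unique mapping. Row identifiers were matched to RefSeq symbols (20261 of 20314).

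A single limma fit on log2(CPM + 1) (limma 3.58.1, R 4.3.3; lmFit, contrasts, eBayes with trend) took in all 56 samples, with 1 coefficient per condition. The methods name edgeR; since the values are not counts, edgeR (4.0.16, quasi-likelihood) on the recovered whole reads was an alternative. p-values were adjusted by Benjamini-Hochberg over the 13754 genes tested, and a call needed an adjusted p not above 0.05 with a log2 fold change of 1 or more in either direction. A fold change on this scale understates changes of low genes, and the SE of a gene was pooled over all conditions, those at the floor included. Genes beside the members were named by a rule: the most alike 3 of each member and up to 3 of each list with the largest and smallest mean TGFβ response. Some genes that this rule names are not reported here. The members and lists were chosen with earlier results of these data known. The fit was tested on simulated data. Alternatives were a pseudocount of 0.1, no filter, median-of-ratios scaling, edgeR, no fold threshold, the replicate number as a block, removal of a GC trend (GC content known for 95.2% of genes tested), single experiments and leaving out each sample.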

Additional observations from a re-analysis of the deposited data

Results flagged for a closer look

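Differences between the responses of 2 lines that passed a test of the difference itself are listed here as values. Zeb1 responded less to TGFβ in D164A/fl than in fl/fl cells, by -2.98 on the log2 scale, and Zeb2 by -2.85. Twist2 differed between dm/fl and fl/fl by -2.18 under TGFβ and by -2.12 under Wnt3a. Twist2 also differed between dm/- and dm/fl, by 2.74 under TGFβ and by 2.35 under Wnt3a. For Prrx1 the TGFβ response of dm/- differed from that of dm/fl by 3.15, but dm/- had no Prrx1 read in any sample, so this value is the fall in dm/fl alone. With 2 samples per condition no condition was large enough for a search by rule for single samples far from the others. The sample dm/fl -Wnt3a replicate 1, with Snai1 at 106 CPM, is described above.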

How the results depend on the processing

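The 2 calls of the mean TGFβ response, Zeb1 and Zeb2, held under all 9 processing alternatives and without any of 28 samples, and median-of-ratios scaling changed no call. Calls among the members moved by more than 1.5 times as follows. With the GC trend removed there were 12 TGFβ responses (7 as reported), 7 differences from fl/fl in TGFβ response (3), 5 differences between deleted and floxed second allele (3) and 0 differences from fl/fl in Wnt3a response (1). With edgeR these were 6, 0, 1 and 0, and 0 Wnt3a responses (1). With only the compared experiment in the fit there were 15 TGFβ responses, 13 differences from fl/fl in TGFβ response and 0 in Wnt3a response, the last also with a pseudocount of 0.1. Without a fold threshold the mean responses gave 4 calls (2). Untreated lines gave 11 calls against fl/fl (19) and 5 between deleted and floxed allele (13) within the Wnt3a experiment alone, and 22 and 12 within the TGFβ experiment; Zeb2 in D164A/- minus D164A/fl turned to 0.15 in the Wnt3a experiment. Leaving out single samples gave 6 to 7 TGFβ responses, 1 to 2 Wnt3a responses, 2 to 3 mean responses, 1 to 4 and 0 to 3 differences from fl/fl in TGFβ and Wnt3a response, 2 to 4 between deleted and floxed allele, and 19 to 20 and 12 to 13 calls in untreated cells. The cause was not tested.

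Same-numbered samples deviated together in 12 of 14 pairs of conditions (r across genes from -0.197 to 0.932), which did not meet the rule set for taking the numbers as pairs. With the replicate block there were 18 TGFβ and 2 Wnt3a responses, 14 and 3 differences from fl/fl and 5 between deleted and floxed allele; with the replicate block and the GC trend removed, 21 TGFβ responses, 16 differences from fl/fl and 8 between deleted and floxed allele. No called member result changed its direction under any alternative except the Zeb2 value above, and 308 of 4195 values of uncalled results changed sign. At 2 samples per condition and 3 reads as the floor, a change of Prrx1 or Twist2 in the lines without reads was not detectable.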
